A study of Mus musculus with 6 samples.

Results

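Sertoli, Leydig and peritubular cells are the somatic cells of the testis. Markers of these cells were followed here in GC-2spd, a cell line that the labels describe as derived from mouse spermatocytes, and were read as a check of what kind of cell the line resembles. The 10 members are Sox9, Wt1, Gata4 and Amh for Sertoli cells, Nr5a1, Star, Hsd3b1 and Insl3 for Leydig cells, and Acta2 and Myh11 for peritubular myoid cells. They were chosen by symbol, and each matched 1 of the 54886 genes listed in every file. The RNA came from 6 libraries in 2 groups of 3. PM_0 was left untreated in normal culture medium, to which the methods of the study add PBS, and PM_100 received 100 μg/mL of PM2.5 over 48 h. Both groups were the same line, of BALB/c background and bought from ATCC, and were grown in DMEM with serum. GC-2spd is immortalised with a viral large T antigen, so that it is a single transformed line and not a tissue. No label says that the 3 replicates were separate cultures, so p-values here measure the spread between libraries, which may be technical.

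Sertoli cells line the seminiferous tubule and nurse the germ cells, Leydig cells lie between the tubules and make testosterone from cholesterol, and peritubular myoid cells are smooth-muscle-like cells that wrap and squeeze the tubule. Sertoli and Leydig cells arise from gonadal somatic cells that share the transcription factors encoded by Gata4, Wt1 and Nr5a1, and each later switches on genes of its own, such as Amh in Sertoli cells or Insl3 and the steroid enzymes in Leydig cells. A spermatocyte in the testis belongs to the germline and is not known for these genes.

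Values are FPKM (fragments scaled to exon length and library depth), a level per length, so that levels of different genes can be set side by side. The reads behind each FPKM were recovered with the exon length of the gene, and totalled 16209352 to 18003201 per library. The FPKM of PM_0 replicate 2 imply a depth of 1.29713e+07 reads, below its recovered 16209352. In the other 5 libraries the implied depth, 1.77421e+07 to 1.85589e+07, was above the recovered total. FPKM of PM_0 replicate 2 are thus raised relative to the others. By CPM (recovered reads scaled to their total) that library was still highest in Acta2, at 155 against 94.1 to 137. Nr5a1 was 119 there against 48.6 to 101, and Gata4 was lowest there at 44.5. One library stood apart, PM_0 replicate 2. Mitochondrial genes held 14.5% of its reads against 1.65% to 1.95% in the other 5 libraries. Its log2(FPKM + 1) had a Pearson's r of 0.732 to 0.779 with the other libraries across the genes tested, whereas all other pairs lay between 0.950 and 0.992. Main results are therefore given with and without PM_0 replicate 2, while percentiles and some values of other genes are given only with it.

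In untreated GC-2spd, 3 members were well expressed and the others were low or not seen. Acta2 (smooth muscle actin), Nr5a1 (steroidogenic factor, the nuclear receptor that drives gonad and adrenal steroid genes) and Gata4 (a zinc finger factor of the early gonad) had mean FPKM of 57.7, 22.1 and 16.7. Without PM_0 replicate 2 these means were 42.4, 15.6 and 17.9, so that Nr5a1 lay below Gata4. Hsd3b1, Insl3 and Myh11, which mark differentiated Leydig and smooth muscle cells, were at or near 0 reads. Thus 4 of the 10 members reached a mean FPKM of 1 in PM_0, while 47.4% of all 21995 protein-coding genes did. At least 3 reads in each PM_0 library were found for 7 of the 10 members and for 56% of protein-coding genes. The members' shares are near these background shares. As these are bulk libraries, fewer cells of a type and less RNA per cell cannot be told apart.

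The promoter windows of a well expressed marker, of a marker with no reads and of a neighbour in the smooth muscle list are shown because these genes had very different levels in the same cells. They are the 250 bases before the start in RefSeq (GRCm38.p6), read 5′ to 3′ on the strand of the gene, with motif matches in capitals. In Acta2 the capitals are CArG boxes with 1 letter off, in Myl9 (a myosin light chain) a full CArG box followed by another with 1 letter off, and in Hsd3b1 GATA elements followed by a SOX element.
Acta2 chr19:34255374-34255623 (-): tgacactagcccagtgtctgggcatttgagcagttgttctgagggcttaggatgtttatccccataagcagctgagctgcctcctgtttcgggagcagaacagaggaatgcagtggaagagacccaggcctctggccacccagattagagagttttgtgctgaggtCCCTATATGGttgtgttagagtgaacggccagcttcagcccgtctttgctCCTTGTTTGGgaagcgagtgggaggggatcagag
Myl9 chr2:156775214-156775463 (+): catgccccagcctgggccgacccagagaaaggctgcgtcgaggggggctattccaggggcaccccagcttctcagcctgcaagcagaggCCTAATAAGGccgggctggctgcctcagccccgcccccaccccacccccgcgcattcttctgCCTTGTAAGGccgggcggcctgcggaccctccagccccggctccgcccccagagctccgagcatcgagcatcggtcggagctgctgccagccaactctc
Hsd3b1 chr3:98859795-98860044 (-): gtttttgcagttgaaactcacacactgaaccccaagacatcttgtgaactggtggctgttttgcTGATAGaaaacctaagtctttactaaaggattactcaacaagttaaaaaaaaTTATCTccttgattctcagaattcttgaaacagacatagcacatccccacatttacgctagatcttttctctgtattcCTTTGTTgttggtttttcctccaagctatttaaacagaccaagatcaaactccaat
Of the 10 members, Acta2, Hsd3b1 and Insl3 were matched in that table. The letters were searched on both strands. The CArG box, bound by serum response factor, begins with CC, goes on with 6 letters that are each either A or T, and ends with GG. The GATA element was searched as TGATAA, further as TGATAG, as AGATAA and likewise as AGATAG. The NR5A element was searched as CAAGGTCA or CAAGGCCA. The SOX element was searched as AACAAT or else as AACAAAG, and the TATA box as TATAAA. No 2 matches in the printed windows overlap. The Acta2 window held no full CArG box and no match to the other motifs, and its 2 near matches began 84 and 34 bases before the start. The near match was added after the full search was seen, and 17.5% of all 32851 windows held one, against 1.47% for the full box. In Myl9 the full box began 161 bases and the near match 99 bases before the start. In Hsd3b1 the GATA letters began 186 and 134 bases and the SOX letters 56 bases before the start. GATA matches were found in 26.5% of all windows, SOX in 13.8%, TATA in 12.4% and NR5A in 3.28%. The Insl3 window held none of these letters.

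**Figure D1:**
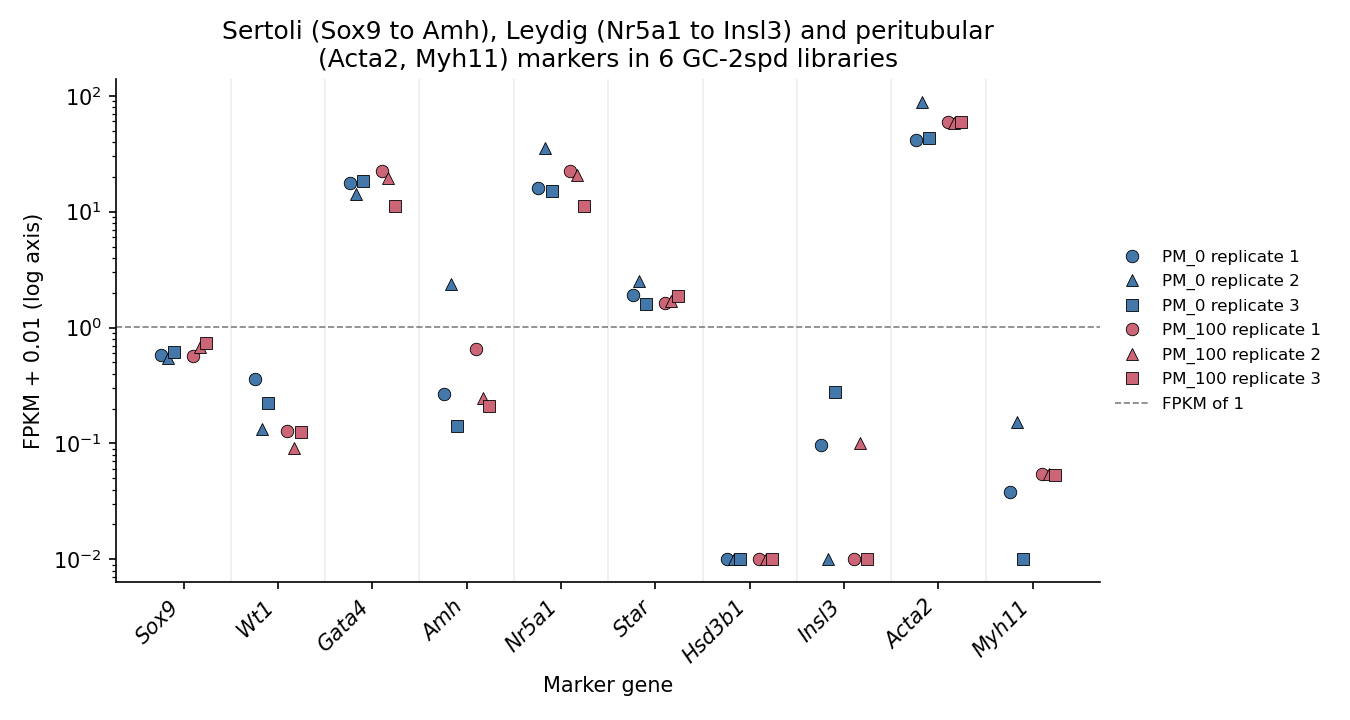
FPKM + 0.01 of the 10 members on a log axis, with 1 point for each of the 6 GC-2spd libraries, PM_0 in blue and PM_100 in red. Acta2, Nr5a1 and Gata4 sit above 10 in every library, Star lies between 1.58 and 2.49, and the other members are under 1 except Amh in PM_0 replicate 2, at 2.35.

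Gata4 was the only Sertoli marker of the 4 with a mean FPKM above 1 in PM_0. It lies on the minus strand of chromosome 14 (63198922 to 63271692, GRCm38). Its FPKM was 17.5, 14.2 and 18.2 in PM_0 replicates 1, 2 and 3, and 22.3, 19.6 and 11.1 in PM_100 replicates 1, 2 and 3. By FPKM the lowest and the highest library were both exposed ones, and the groups overlapped. The PM_0 mean of 16.7 ± 2.12 (SD, n = 3) put Gata4 at the 84.2 percentile of protein-coding genes.

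Sox9, the factor that fixes Sertoli fate downstream of Sry, was present at a low and even level. On the plus strand of chromosome 11 (112782224 to 112787760), its FPKM was 0.573, 0.541 and 0.604 in PM_0 and 0.555, 0.668 and 0.723 in PM_100. Between 29 and 54 reads stood behind each value, and the groups overlapped. Gata4 FPKM was 30.5, 26.3 and 30.2 times that of Sox9 in the 3 PM_0 libraries.

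Wt1 encodes a zinc finger factor needed to form the gonad and to keep Sertoli cells. From chromosome 2 (105126529 to 105173616, plus strand) it gave an FPKM of 0.348, 0.124 and 0.215 in PM_0, from 40, 10 and 24 reads. In PM_100 its FPKM was 0.117, 0.082 and 0.116, from 13, 9 and 13 reads. All PM_0 libraries were above all PM_100 libraries, but replicate 2 of PM_0 was so only narrowly.

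Amh, the hormone that makes the Müllerian ducts regress and a hallmark of immature Sertoli cells, was low except in 1 library. Its gene lies on chromosome 10 (80805243 to 80807648, plus strand). The FPKM was 0.258, 2.35 and 0.133 in PM_0 and 0.637, 0.236 and 0.199 in PM_100. PM_0 replicate 2 held 51 of the 95 reads of all 6 libraries, and its FPKM was 12.0 times the mean of the other 2 PM_0 libraries. The groups overlapped, and the PM_0 mean of 0.915 ± 1.25 (SD, n = 3) rested on that library.

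Nr5a1 was the highest of the 4 Leydig members. It lies on the minus strand of chromosome 2 (38692656 to 38714542). Its FPKM was 16.0, 35.2 and 15.2 in PM_0 and 22.6, 20.7 and 11.1 in PM_100, from 852 to 1934 reads. PM_0 replicate 2 was the highest of the 6 libraries and PM_100 replicate 3 the lowest, so the groups overlapped. The PM_0 mean was 22.1 ± 11.3 (SD, n = 3), at the 88.0 percentile of protein-coding genes. No 31-base sequence of Nr5a1 was found in another gene, and no exon of another gene overlapped its exons.

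Star encodes the protein that carries cholesterol into the mitochondrion, the step that limits steroid synthesis. The gene lies on chromosome 8 (25806555 to 25815982, plus strand), and its FPKM was 1.89, 2.49 and 1.58 in PM_0 and 1.62, 1.70 and 1.86 in PM_100. The libraries lay close together and the groups overlapped. Nr5a1 FPKM was 8.46, 14.1 and 9.61 times that of Star in the PM_0 libraries.

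Hsd3b1 encodes a hydroxysteroid dehydrogenase that turns pregnenolone into progesterone. It lies on the minus strand of chromosome 3 (98852194 to 98859794) and was listed at 0 in all 6 libraries. A count of 0 allows up to 3 reads, which is an FPKM of 0.0871 to 0.125 depending on the library. Hsd3b2, Hsd3b3 and Hsd3b6, its near copies, were also at 0 reads in every library. Hsd3b1 shares 13.0% of its 31-base sequences with other genes, where reads cannot be placed on it with certainty.

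Insl3, the peptide by which Leydig cells guide testis descent, was at the floor. Its reads were 1, 0 and 3 in PM_0 and 0, 1 and 0 in PM_100, so that no library held more than 3 reads. Of its exon length on chromosome 8 (71689214 to 71690575, plus strand), 64.8% overlaps exons of Jak3 on the same strand, and Jak3 had a mean FPKM of 2.29 in PM_0. How reads over 2 genes were counted is not given in the sources used here, so the 5 reads of Insl3 are uncertain.

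Acta2 was the highest of the 10 members. It lies on the minus strand of chromosome 19 (34241090 to 34255590), and its FPKM was 41.6, 88.3 and 43.3 in PM_0 and 59.2, 58.1 and 59.5 in PM_100. The PM_100 libraries agreed closely and lay between PM_0 replicate 2 and the other 2 PM_0 libraries. The PM_0 mean of 57.7 ± 26.5 (SD, n = 3) was at the 96.1 percentile of protein-coding genes. Only 1.39% of the 31-base sequences of Acta2 occur in other genes.

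The near copies of Acta2 had very different levels. Actg2, Acta1 and Actc1, the other muscle actins, had at most 8, 2 and 0 reads in any library. Actb, the cytoplasmic β-actin, had an FPKM of 3502 in PM_0 replicate 2 and 814 to 901 in the other 5 libraries. Actg1, the cytoplasmic γ-actin, went the other way, with 59.8 in PM_0 replicate 2 and 406 to 466 in the others.

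Myh11, the smooth muscle myosin heavy chain and the more specific mark of mature smooth muscle, was at most 14 reads. On chromosome 16 (14194535 to 14291372, minus strand), its reads were 4, 14 and 0 in PM_0 and 6, 6 and 6 in PM_100. PM_0 replicate 2 held the most and PM_0 replicate 3 none. The nonmuscle myosins Myh9 and Myh10 had FPKM of 49.6, 35.7 and 46.8 and of 15.0, 9.16 and 14.5 in PM_0, while Myh14 lay between 0.564 and 0.83.

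In the order of mean FPKM in PM_0, Acta2 was followed by Nr5a1, Gata4, Star, Amh, Sox9, Wt1, Insl3, Myh11 and Hsd3b1. The ranges of neighbours over the 3 PM_0 libraries did not overlap between Acta2 and Nr5a1, between Gata4 and Star, and between Sox9 and Wt1. All other neighbours overlapped in range. Of these, Star was above Amh within each of the 3 PM_0 libraries, and the order of the rest is not set beyond the spread. By means without PM_0 replicate 2, Gata4 (17.9) stood above Nr5a1 (15.6), and Amh (0.195) below Sox9 (0.588) and Wt1 (0.281). The ratio of Nr5a1 to Gata4 was 0.912, 2.47 and 0.832 in PM_0 and 1.01, 1.05 and 1.00 in PM_100, so that Nr5a1 was clearly above Gata4 in PM_0 replicate 2 and near it or below elsewhere. The ratio of Acta2 to Nr5a1 was steadier at 2.60, 2.51 and 2.86 in PM_0 and 2.63 and 2.81 in PM_100 replicates 1 and 2, but was 5.35 in PM_100 replicate 3.

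The wider lists show how far the markers of each cell type went beyond the members. Of 24 Sertoli genes, 7 had a mean FPKM of at least 1 in PM_0, and the highest were Kitl (the ligand of the receptor KIT on germ cells), Clu (clusterin, a secreted chaperone) and Gata4. Kitl FPKM was 45.7, 16.8 and 44.1 in PM_0, lowest in replicate 2. The receptor of follicle-stimulating hormone Fshr, the tight junction gene Cldn11 and the male sex gene Dmrt1 were at 0 reads in all 6 libraries. These 3 genes were chosen after their values were seen. Of 16 Leydig genes 6 reached an FPKM of 1, led by Tspo (a mitochondrial outer membrane protein), Fdxr (the reductase that feeds electrons to the steroid cytochromes) and Nr5a1. Fdxr FPKM was 13.9, 52.1 and 12.4 in PM_0 and so was also highest in replicate 2. Cyp11a1, which makes pregnenolone, had 3 to 12 reads per library, Cyp17a1, which leads to androgens, had at most 4, and the luteinizing hormone receptor Lhcgr had 0, all chosen after their values were seen.

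**Figure D2:**
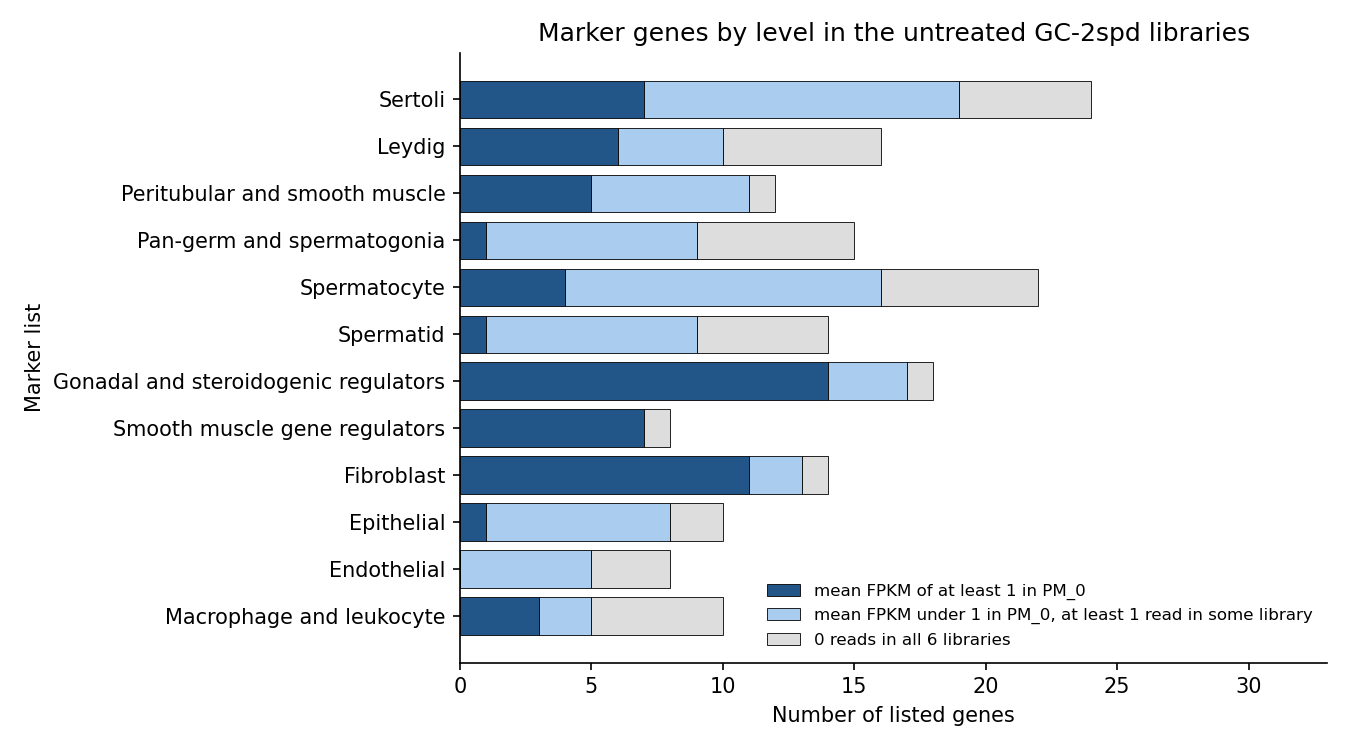
Number of genes in each of 12 marker lists by level in untreated GC-2spd, with bar segments for a mean FPKM of at least 1, for a lower mean with at least 1 read in some library, and for 0 reads in all 6 libraries. Gonadal regulators (14 of 18) and fibroblast genes (11 of 14) had the most genes in the darkest segment, and the endothelial list had none. The lists differ in size, and smooth muscle regulators had 7 of 8 there. Of all protein-coding genes, 47.4% reached that level.

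Of 18 regulators of gonad formation and steroid synthesis, 14 had a mean FPKM of at least 1 in PM_0, where 47.4% of all protein-coding genes did. The 3 highest were Cebpb, a factor that also acts in stress and inflammation, Nr2f2 (COUP-TFII, of fetal Leydig and interstitial cells) and Lhx9 (a LIM homeobox factor of the early gonad). Nr2f2 FPKM was 11.3, 8.93 and 11.0 and that of Lhx9 was 5.46, 5.42 and 5.21 in PM_0, both even across libraries. Cebpb was not, with 19.4, 160 and 19.7 in PM_0 and 76.2, 77.3 and 16.96 in PM_100. Sry, Fgf9, Foxl2 and Rspo1, the genes of this list under an FPKM of 1, had at most 4 reads in any library. The germline lists were lower in count. Of 15 pan-germ and spermatogonial genes 1 reached an FPKM of 1, of 22 spermatocyte genes 4 (3 without PM_0 replicate 2), and of 14 spermatid genes 1.

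The 3 highest spermatocyte genes were Syce2 (a central element protein of the synaptonemal complex), Hspa2 (a heat shock protein of meiosis) and Ythdc2 (an RNA helicase needed to enter meiosis). Syce2 FPKM was 70.6, 75.9 and 74.1 in PM_0, above Acta2 in 2 of the 3 libraries. Hspa2 FPKM was 5.52, 2.51 and 4.61, and Ythdc2 FPKM was 5.16, 1.58 and 5.16. The leading genes of the other germline lists were Uchl1 (a ubiquitin hydrolase also found in neurons), Gfra1 (the GDNF co-receptor) and Nanos3 in the first, and Crem, Hspa1l and Tssk1 in the spermatid list. Uchl1 FPKM was 18.4, 12.7 and 19.2 in PM_0 and that of Crem 1.71, 1.66 and 2.11, while Gfra1, Nanos3, Hspa1l and Tssk1 stayed under 1 in every library. Dazl, which germ cells need, was at 0 reads in all 6 libraries and Ddx4, the germ cell helicase, at 0 to 7 reads, both chosen after their values were seen.

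Markers of cells other than those of the testis tubule were also counted. Of 14 fibroblast genes 11 reached an FPKM of 1, with Sparc, Col1a1 and Vim highest at 351 to 621, 412 to 452 and 254 to 698 in PM_0. Several of these genes are also made by peritubular and other mesenchymal cells. Of 10 epithelial genes 1 did (Krt19, ahead of Krt14 and Cdh1), and of 8 endothelial genes none did, with Kdr, Pecam1 and Tek highest. Of 10 macrophage and leukocyte genes 3 did, namely Cd14, Cd68 and Fcer1g, and without PM_0 replicate 2 only Cd14 did. The summed FPKM of that list was 35.4 in PM_0 replicate 2 and 6.78 to 8.94 in the other 5 libraries, while Ptprc, Adgre1, Itgam and Cd3e were at 0 reads everywhere. The library with the highest Amh, Nr5a1 and Acta2 was thus also the one with the highest Cd68, at 15.5 against 0.75 to 1.80. The part of these differences in the members' values was not tested.

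**Figure D3:**
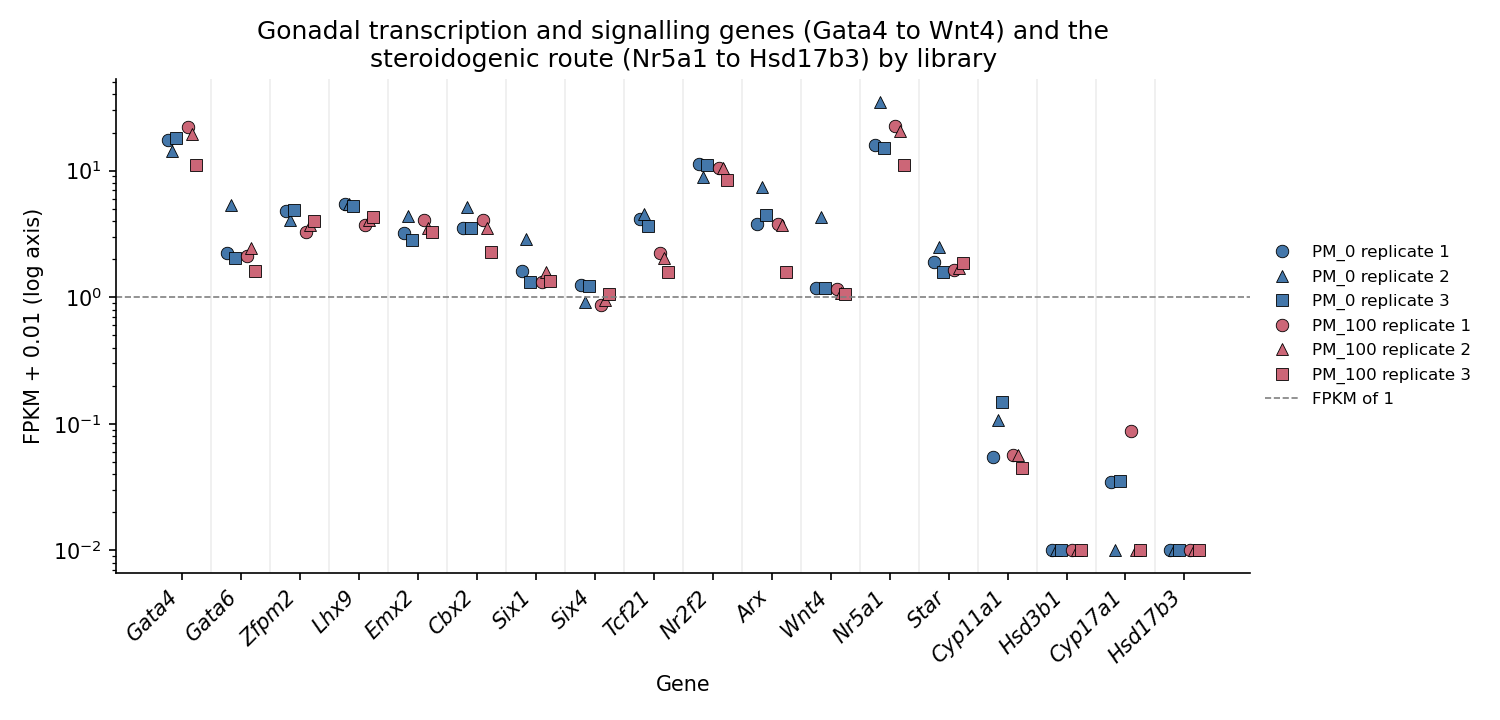
FPKM + 0.01 of genes of gonad formation (Gata4 to Wnt4) and of the steroid route (Nr5a1 to Hsd17b3) on a log axis, with 1 point per library, PM_0 in blue and PM_100 in red. Nr5a1 has its highest point in PM_0 replicate 2, at 35.2 FPKM, and Cyp11a1, Hsd3b1, Cyp17a1 and Hsd17b3 lie far below the line at an FPKM of 1.

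The smooth muscle genes did not follow Acta2 in level. Of 12 peritubular and smooth muscle genes, 5 had a mean FPKM of at least 1 in PM_0, namely Acta2, Myl9, Smtn, Mylk and Cnn1, and 6 did without PM_0 replicate 2. Cnn1 (calponin), with an FPKM of 1.24, 0.564 and 1.32 in PM_0 and 1.00, 0.803 and 0.991 in PM_100, was under the filter over all 6 libraries and was chosen after its values were seen. The 5 genes in the fit were Acta2, Myl9, Smtn (smoothelin, on actin filaments), Mylk (the kinase of myosin light chains) and Lmod1 (a leiomodin that starts actin filaments). Myl9 FPKM was 14.3, 39.6 and 14.5 in PM_0 and 23.1, 19.9 and 19.9 in PM_100. Smtn FPKM was 6.61, 13.4 and 7.07 in PM_0 and 11.0, 10.1 and 6.63 in PM_100. Both had, like Acta2, their highest FPKM in PM_0 replicate 2, though Smtn had 761 reads there and 857 in PM_100 replicate 1.

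Mylk FPKM was 5.35, 7.66 and 5.48 in PM_0 and 3.33, 3.29 and 3.06 in PM_100, with every PM_0 library above every PM_100 library. Lmod1 FPKM was 1.02, 0.371 and 0.997 in PM_0 and 1.70, 1.499 and 1.26 in PM_100, the opposite order. Tagln (transgelin), an abundant smooth muscle gene, had 14, 1 and 18 reads in PM_0 and 7, 7 and 7 in PM_100, and 62.4% of its exon length overlaps the antisense gene Gm48529. Acta2 FPKM was 110, 2278 and 86.2 times that of Tagln in the 3 PM_0 libraries. How reads over Tagln and Gm48529 were counted is not given in the sources used here, so these ratios are uncertain. Tagln was chosen after its values were seen.

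Among regulators of smooth muscle genes, 7 of 8 entered the fit, and Myocd (myocardin, the coactivator that drives the mature programme) was at 0 reads in all 6 libraries. Srf, which binds the CArG box, had an FPKM of 14.0, 7.75 and 16.5 in PM_0 and 27.5, 25.5 and 11.9 in PM_100. Its coactivators Mrtfa and Mrtfb ranged from 7.13 to 13.7 and from 1.78 to 4.05 over all 6 libraries. Smad3, which carries TGFβ signals, ranged from 10.4 to 12.2, and Tgfb1 itself from 2.87 to 6.36. Klf4 and Elk1, which can oppose smooth muscle genes, ranged from 3.89 to 11.9 and from 5.09 to 8.37. In all 7 genes the PM_0 and PM_100 libraries overlapped.

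**Figure D4:**
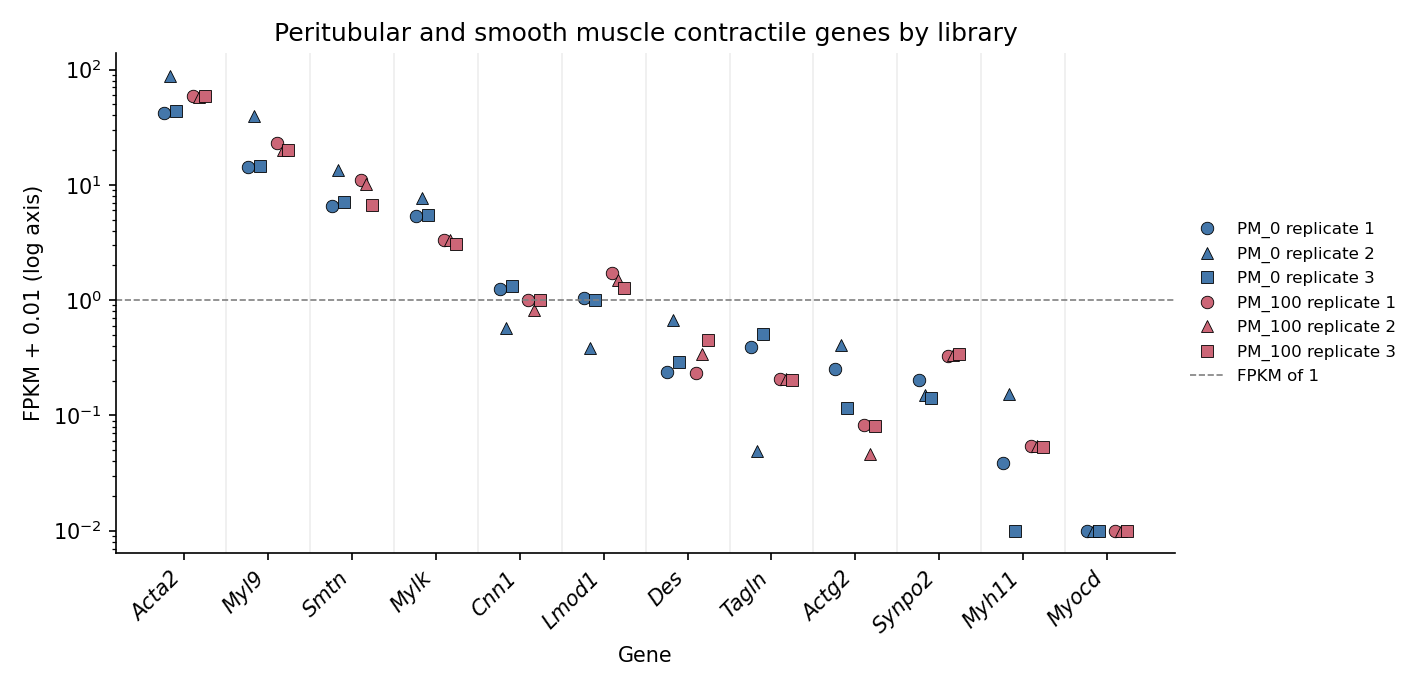
FPKM + 0.01 of the 12 peritubular and smooth muscle genes on a log axis, with 1 point per library, PM_0 in blue and PM_100 in red. Acta2 (41.6 to 88.3) stands above Myl9, Smtn and Mylk, and PM_0 replicate 2 holds the highest value of Acta2, Myl9, Smtn and Mylk.

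The comparison of PM_100 with PM_0 asked whether exposure moved these markers. None of the 10 members was called differentially expressed. In limma on log2(FPKM + 1), a call needed an adjusted p-value (Benjamini-Hochberg) under 0.05 together with a log2 fold change beyond 1 in size, and 11884 genes whose mean FPKM reached 1 were tested. Gata4, Nr5a1, Star and Acta2 entered the fit, and 0 of these 4 were called, with 0 at an unadjusted p-value under 0.05. Of all genes tested 0.0926% were called, so that 0 of 4 is near the background. The groups overlapped in each of the 4, while 15.2% of all genes tested did not overlap.

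The log2 fold change of Gata4 was 0.03 (SE 0.30, 95% interval -0.70 to 0.76, adjusted p = 0.973). That of Nr5a1 was -0.23 (SE 0.42, 95% interval -1.26 to 0.81, adjusted p = 0.892). Of the 4 intervals, that of Nr5a1 alone reached past the size needed for a call, on its lower side. The log2 fold change of Star was -0.12 (SE 0.19, 95% interval -0.58 to 0.34, adjusted p = 0.879), and that of Acta2 was 0.12 (SE 0.33, 95% interval -0.69 to 0.93, adjusted p = 0.920).

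Without PM_0 replicate 2, again 0 of the 4 members were called, with 0.707% of all genes called. The value of Acta2 then moved to 0.46 (SE 0.083, 95% interval 0.25 to 0.68), with an adjusted p = 0.1002 and an unadjusted p = 0.00233 from limma. In that fit 15.9% of all genes had an unadjusted p-value under 0.05, against 3.8% with all 6 libraries. All 3 PM_100 libraries, at 58.1 to 59.5 FPKM, were above PM_0 replicates 1 and 3 at 41.6 and 43.3. Nr5a1 moved to 0.15 (SE 0.31, adjusted p = 0.840) and Gata4 to -0.07 (SE 0.30, adjusted p = 0.926), both with a change of sign. Star stayed near 0 at -0.0023 (SE 0.11, adjusted p = 0.994).

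**Figure D5:**
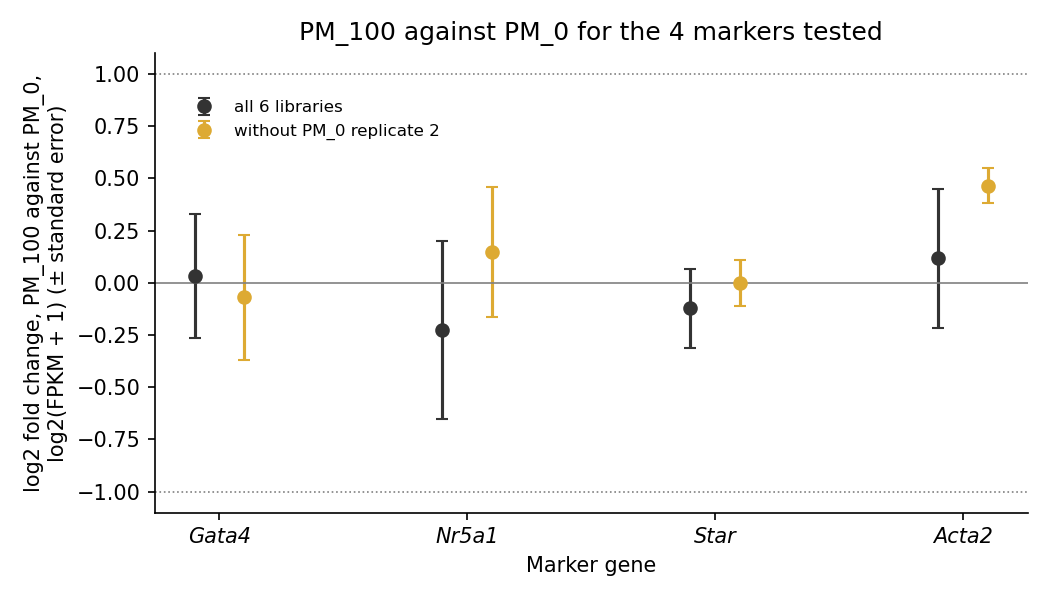
Log2 fold change of PM_100 against PM_0 on the log2(FPKM + 1) scale for Gata4, Nr5a1, Star and Acta2, with bars of 1 standard error and dotted lines at the size needed for a call, from all 6 libraries and without PM_0 replicate 2. Without that library the value of Acta2 moves from 0.12 to 0.46 and that of Nr5a1 from -0.23 to 0.15.

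The other 6 members were under the filter and were compared 1 by 1 with a two-sided exact permutation test, whose smallest possible p with 3 against 3 libraries is 0.1. Wt1 reached that p of 0.1, and its mean FPKM was 0.229 ± 0.112 in PM_0 and 0.105 ± 0.0202 in PM_100 (SD, n = 3). Its difference on the log2(FPKM + 1) scale was -0.15, and without PM_0 replicate 2 it was -0.21. Of the 3 members under the filter with at least 3 reads in each PM_0 library, Wt1 alone did not overlap, and 17.6% of such genes did not overlap. With the recovered reads scaled to the library total (CPM) the Wt1 groups did overlap, at 2.22, 0.617 and 1.37 in PM_0 and 0.765, 0.526 and 0.742 in PM_100.

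For Sox9 the exact permutation p was 0.3, with means of 0.573 ± 0.0314 and 0.648 ± 0.0855 FPKM (SD, n = 3). Amh had an exact p of 0.8, with 0.915 ± 1.25 in PM_0 and 0.357 ± 0.243 in PM_100, and its difference turned from -0.33 to 0.17 without PM_0 replicate 2. Insl3 had an exact p of 0.7, Myh11 1 and Hsd3b1 1, and at these read counts a difference was not detectable.

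In the wider lists no gene was called with all 6 libraries, against 4 higher and 7 lower among all genes tested. The median log2 fold change was 0.03 over the 7 Sertoli genes tested, -0.06 over 6 Leydig genes and 0.07 over 5 smooth muscle genes, where that of all genes was 0.02. Without PM_0 replicate 2 these medians were -0.07, 0.03 and 0.36, and that of all genes -0.01. It was -0.25 over 14 gonadal and steroidogenic regulators, 0.21 over 7 smooth muscle regulators and -0.37 over 11 fibroblast genes, and without that library it was -0.14, 0.27 and -0.46. With quantile normalization the fibroblast median was -0.05 and that of the gonadal regulators -0.28. The 3 spermatocyte genes tested had a median of 0.10 and the 3 macrophage genes -0.68, and without PM_0 replicate 2 these were -0.14 and 0.10.

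Gdnf, the Sertoli factor that keeps spermatogonial stem cells, was the 1 listed gene of these somatic lists called when PM_0 replicate 2 was left out. Its FPKM was 1.95, 1.80 and 1.90 in PM_0 and 5.85, 5.52 and 5.84 in PM_100, so the groups lay far apart. The log2 fold change was 1.22 (SE 0.15, adjusted p = 0.111 from limma) with all libraries and 1.20 (adjusted p = 0.0117) without that library. Of the 7 Sertoli genes tested, Gdnf and Clu were higher and Sox8 was lower in every PM_100 library than in every PM_0 library. Among the 14 gonadal regulators, Zfpm2, Lhx9, Tcf21 and Wnt4 were lower in every PM_100 library, and Tcf21 had the lowest value, at a log2 fold change of -0.80 (SE 0.18, adjusted p = 0.536). Such a lack of overlap held for 15.2% of all genes tested, and apart from Lhx9 and Clu these genes were chosen after their values were seen. In Wnt4 the gap was narrow, with a lowest PM_0 FPKM of 1.164 and a highest PM_100 FPKM of 1.161. The log2 fold change of Wnt4 was -0.48 with all libraries and -0.05 without PM_0 replicate 2. Mylk had a log2 fold change of -0.75 (SE 0.19, adjusted p = 0.711), with an adjusted p = 0.0652 without PM_0 replicate 2.

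The other smooth muscle genes and regulators in the fit were not called in either fit. Lmod1, Smtn and Myl9 had log2 fold changes of 0.49, 0.07 and 0.04. Srf and Klf4 had 0.69 and 0.58, Mrtfb 0.24, Elk1 0.21, Mrtfa 0.19, Tgfb1 0.15 and Smad3 0.07, with adjusted p-values of all 10 genes between 0.875 and 0.974 with all 6 libraries. Without PM_0 replicate 2, Lmod1, Smtn and Myl9 had 0.30, 0.36 and 0.51 (adjusted p from limma of 0.330, 0.479 and 0.123). Srf and Klf4 then had 0.40 and 0.28, and Mrtfb turned to -0.05.

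Likeness over the 6 libraries is given as Pearson's r of log2(FPKM + 1), as a description, since the libraries share the 2 groups and 1 of them stands apart. The 3 genes most like Acta2 were Ankrd1 (0.999), Arl6ip5 (0.997) and Rps23 (0.996). For Nr5a1 they were Csnk1e (0.999), Tns2 (0.998) and Git1 (0.998). For Gata4 they were Fzr1 (0.996), Col5a1 (0.996) and Cavin1 (0.993), and for Star Caml (0.989), Gm10012 (0.989) and Prmt9 (0.986). None of the 4 members was among the nearest genes of another. Between members, r was 0.719 for Star and Acta2, 0.696 for Nr5a1 and Acta2, 0.576 for Nr5a1 and Star, 0.305 for Gata4 and Nr5a1, -0.331 for Gata4 and Acta2 and -0.542 for Gata4 and Star.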

How the data were processed

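RNA of 3 untreated (PM_0) and 3 PM2.5-exposed (PM_100) GC-2spd libraries was sequenced by the authors as 150 bp paired-end reads. Per the submitters' processing notes, reads were mapped with HISAT2 2.0.5 and counted with featureCounts 1.5.0-p3, with the build mm9. The authors deposited FPKM per gene for each library. Symbols, exon lengths and positions came from GENCODE M21 (GRCm38), with lengths found for 54495 of 54886 genes. GRCm38 is not the build mm9 that the notes name, and this conflict was not resolved. Reads were recovered as FPKM times exon length over the worth of 1 read, and 98.1% to 98.4% of values under 50 reads were whole within 0.05 reads. Recovered totals of 16209352 to 18003201 reads set the precision, and a count of 0 allows up to 3 reads, for counting error only.

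Expression was compared with limma 3.58.1 (trend and robust options, statmod 1.5.0, R 4.3.3) on log2(FPKM + 1), which understates the change of low genes, over genes whose mean FPKM over the 6 libraries reached 1. P-values were Benjamini-Hochberg adjusted over all genes tested. Members under the filter had an exact permutation test. Detection was at least 3 reads in each PM_0 library. The study's DESeq2 test was not run, as it needs counts. Alternatives were other filters, pseudocounts, thresholds and scalings, voom on recovered reads, a replicate block and leaving out each library. The computation was tested on simulated data modelled on the PM_100 libraries. No simulated library stood apart as PM_0 replicate 2 did, so that test does not cover its effect.

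The members and all lists were chosen with earlier results of these data known. Named genes are the members, the 3 highest genes of each list in PM_0, every listed gene called, smooth muscle genes and regulators in the fit, the 3 genes nearest each member in the fit, and near copies of Acta2, Hsd3b1 and Myh11. Any other gene, Gdnf and Jak3 included, was chosen after its values were seen. Some listed genes that the rule or the values would name are not reported here. Promoters came from RefSeq (GRCm38.p6). Tables and figures were made with Python 3.11.15, numpy 2.4.6, pandas 2.3.3 and matplotlib 3.10.9.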

Additional observations from a re-analysis of the deposited data

How the results depend on the processing

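With 3 libraries a group, of which 1 stood apart, only large and even changes could be called, and for Hsd3b1, Insl3 and Myh11 the reads were too few to compare. The number of members called was 0 in limma under all 15 settings, with 1 member, Acta2, at an unadjusted p-value under 0.05 without PM_0 replicate 2, where 1885 of all 11884 genes (15.9%) were. The adjusted p of the tested members ranged from 0.1002 to 0.994. The number of all genes called was 11, and became 0 with no filter (875 genes had p under 0.05 before adjustment), 1 with at least 10 reads in every library, 6 after scaling to recovered total reads, 0 with voom on recovered reads (403 unadjusted) and 0 with the replicate block (335 unadjusted). Leaving out 1 library gave 0 to 84 called genes, with 84 without PM_0 replicate 2 and 0 without any of the other 5. It was 9 with a pseudocount of 0.1, 10 with quantile normalization and 11 with no fold change threshold. The cause of these moves was not tested. Leaving out 1 library in turn, the log2 fold change of Gata4 ranged from -0.15 to 0.32, that of Nr5a1 from -0.43 to 0.15 and that of Acta2 from -0.070 to 0.46. In Gata4 the sign turned without PM_0 replicate 2 (-0.07), PM_100 replicate 1 (-0.15) or PM_100 replicate 2 (-0.07), in Nr5a1 without PM_0 replicate 2 (0.15) or PM_100 replicate 3 (0.07), and in Acta2 without PM_0 replicate 1 (-0.070) or 3 (-0.042). Star kept its sign in all its fits. Scaling to total reads moved the median log2 fold change of all genes tested from 0.02 to 0.13. Members at a mean FPKM of at least 1 numbered 3 to 6 over the alternatives and members detected 6 to 8. Under quantile normalization, voom and the replicate block, members under the filter were not fitted, and with at least 10 reads Sox9 was added to the 4. The replicate numbers share only a label, as the deviations of same-numbered libraries had an r of -0.285, 0.181 and 0.253, and the block changed no call of a member.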
